A study of Xenopus laevis with 30 samples.

Results

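Forebrain and midbrain of Xenopus laevis tadpoles were compared at stage 46 of Nieuwkoop and Faber (NF), before metamorphosis. The comparison took the 3 libraries labelled stage 46 forebrain and the 3 labelled stage 46 midbrain, 6 of the 30 RNA-seq libraries in the series, and covered every gene that passed a filter on low counts. The animals were albino tadpoles of both sexes, and the sources used here name no genotype, transgene or treatment that differs between the groups, so the groups differ by the region dissected. The methods of the study call the forebrain tissue subcortical and the libraries biological replicates. They do not say how many animals went into a library. The wider series samples the midbrain over several stages and adds hindbrain and spinal cord at stage 46. It also holds forebrain, midbrain, hindbrain and spinal cord libraries of stage 49.

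The forebrain comprises the telencephalon, in which pallial and subpallial neurons arise, and more caudal territories such as the hypothalamus and thalamus. The amphibian midbrain holds the optic tectum, which receives the retinal axons, and the tegmentum beneath it. These territories are set up by transcription factors with restricted expression, such as Emx in the telencephalon, Pax7 in the tectum and Engrailed at the border of midbrain and hindbrain. X. laevis is an allotetraploid frog, so many genes have a copy on the long (.L) and on the short (.S) chromosome of a pair.

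Between 3277179 and 10884064 reads per library were counted on genes, and forebrain replicate 3 was the shallowest. Thinned to that depth, the other 5 libraries detected between 29915 and 30884 genes, whereas forebrain replicate 3 detected 45979. Genes without counts in the stage 44 and stage 55 midbrain libraries used here took 0.532% of its counts and at most 0.0132% of the counts of any other library. Its summed level of hox genes, which mark hindbrain and spinal cord, was 207 CPM, the number of counts per 1e6 counts of the scaled library, against 2.09 to 6.97 CPM in the other forebrain libraries and 1.71 to 4.06 CPM in the midbrain. On log2 CPM, forebrain replicates 1 and 2 correlated with each other at 0.956, and replicate 3 correlated with them at 0.880 and 0.887. These are correlations across genes, which are not independent replicates. Forebrain replicate 3 therefore stood apart, and the calls of genes and the counts over lists were also computed without it. Counts of separated libraries, counts over .L and .S copies, the test between stages and the levels over all regions were computed with it only.

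Of 49109 genes in the table, 25232 were tested. Calls required that the log2 fold change, forebrain minus midbrain, exceed 2 in size and that the edgeR adjusted p be under 0.05. This called 362 genes higher in forebrain (1.43% of genes tested) and 165 lower (0.654%). At any fold, 940 genes were higher and 875 lower at an adjusted p below 0.05 (3.73% and 3.47% of genes tested). The median log2 fold change of all genes was 0.02. The 3 forebrain libraries lay wholly above the 3 midbrain libraries in 361 of the 362 higher genes and wholly below in all 165 lower genes, where 12.3% and 12.8% of all genes tested were separated in these directions. The called genes were selected by fold and p in the same libraries, so this separation follows largely from the selection.

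The directions differed in how far they rested on forebrain replicate 3. Without it, 374 genes were called higher (1.47% of 25417 tested) and 428 lower (1.68%). With and without it, 317 genes were called higher (1.26%) and 159 lower (0.63%). Leaving it out ended 45 higher and 6 lower calls and added 57 higher and 269 lower calls. Among the 159 genes called lower in both fits, the median level, as a percent of the midbrain mean, was 8.89% in forebrain replicate 1, 5.94% in replicate 2 and 15.5% in replicate 3. Of the genes called lower only without replicate 3, 266 passed the filter in both fits, and their medians were 9.16%, 7.11% and 97.5%. In these genes replicate 3 was close to the midbrain level while the other forebrain replicates were low. The genes were selected by gaining a call when replicate 3 was left out, so this contrast follows largely from the selection. The higher calls also moved with the midbrain libraries: 204 remained in number without midbrain replicate 1 and 227 without midbrain replicate 2.

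**Figure D1:**
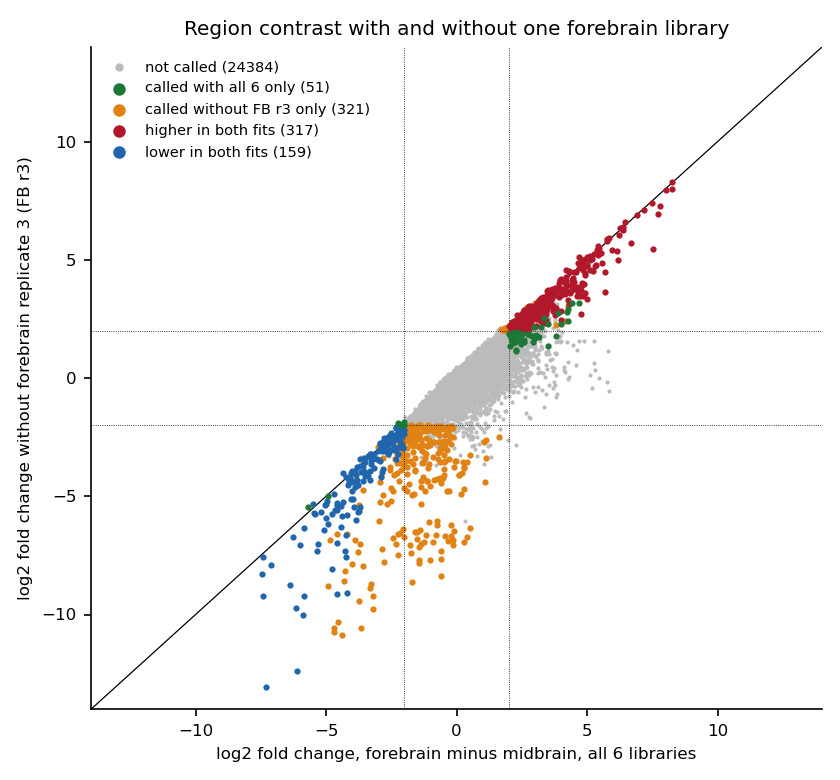
Each point is a gene tested in both fits, with its log2 fold change (forebrain minus midbrain) from all 6 libraries on the x axis and without forebrain replicate 3 on the y axis. The solid line marks equal values and the dotted lines mark the threshold of 2 in size. The 317 genes higher in both fits lie along the line, whereas many genes called only without replicate 3 lie far below it, on the side of the genes lower in forebrain.

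The genes called higher were at lower levels than the genes called lower. The median forebrain level of the 317 was 10.9 CPM, and 150 of them had a forebrain mean below 10 CPM. The 159 lower genes had a median midbrain level of 27.3 CPM, and 27 of them had a midbrain mean below 10 CPM. Of the 317 higher genes 179 carry a gene symbol and 120 only a LOC number, and of the 159 lower genes 100 carry a symbol and 49 a LOC number.

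Genes of the telencephalon made up the clearest group on the forebrain side. Of 46 tested copies in a list of telencephalic transcription factors, 11 were called higher and none lower, with a median log2 fold change of 1.35. With LOC genes named from RefSeq the list had 55 tested copies, 15 called higher and 1 lower. Among the copies called were both copies of emx1, eomes and lhx6 together with gsx2.L, neurod6.L and sp8.L. Without forebrain replicate 3 the list had 11 higher and 2 lower calls.

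The largest fitted log2 fold change among called genes with a symbol was that of emx1.L, a copy of a homeobox gene of the pallium. It was at 20.3, 30.5 and 23.5 CPM in the 3 forebrain libraries and at 0, 0 and 0.190 CPM in the midbrain libraries. The midbrain libraries held 2 counts in all and the forebrain libraries 495, a ratio of 383 with an exact 95% counting interval from 105 to 3172. The other copy, emx1.S, was at 49.5, 53.4 and 43.6 CPM in forebrain and at 0.693, 1.09 and 0.760 CPM in midbrain (log2 fold change 5.84, SE 0.26, edgeR adjusted p = 1.54e-08). All forebrain libraries were high for both copies, replicate 3 included.

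The T-box genes eomes and tbr1 and the bHLH genes neurod2 and neurod6, known from glutamatergic neurons of the mammalian pallium, were higher in forebrain. Eomes (Tbr2) marks intermediate progenitors of the mammalian cortex, and eomes.S was at 60.8, 77.5 and 47.8 CPM in forebrain and 1.19, 1.64 and 1.52 CPM in midbrain (log2 fold change 5.42, SE 0.27, edgeR adjusted p = 2.16e-08). The copy eomes.L had a forebrain mean of 101 ± 26.3 CPM (SD, n = 3) and a midbrain mean of 6.51 ± 1.223 CPM (SD, n = 3). The copies of tbr1, a factor of postmitotic pallial neurons, appear in the files as LOC108701844 (.L) and LOC108702968 (.S) and were named from RefSeq after their values were seen. The .S copy LOC108702968 was at 183, 219 and 115 CPM in forebrain and 15.7, 14.3 and 15.6 CPM in midbrain (log2 fold change 3.50, SE 0.26), and LOC108701844 had a log2 fold change of 3.25 (SE 0.24). The neuronal differentiation factors neurod2.S and neurod6.L differed by 3.28 (SE 0.21) and 2.36 (SE 0.20), and LOC108701977, which RefSeq names neurod2.L, by 3.54 (SE 0.22). Another bHLH gene of that lineage, neurog2, was not higher. The copy neurog2.S was at 2.42, 4.39 and 3.68 CPM in forebrain and 14.4, 12.8 and 9.02 CPM in midbrain (log2 fold change -1.78, SE 0.37, edgeR adjusted p = 0.00679), below the fold threshold, and the groups overlapped in neurog2.L. Both neurod genes still had midbrain levels of 5.75 ± 0.232 CPM (SD, n = 3) for neurod2.S and 33.2 ± 4.16 CPM (SD, n = 3) for neurod6.L.

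Genes of the subpallium, where GABAergic neurons of the telencephalon are born, were also higher in forebrain, with smaller differences. The progenitor factor gsx2.L was at 26.2, 20.1 and 22.9 CPM in forebrain and 2.57, 4.71 and 3.13 CPM in midbrain (log2 fold change 2.73, SE 0.28, edgeR adjusted p = 1.6e-05). For lhx6.S, a factor of migrating interneurons in mammals, the levels were 41.8, 47.8 and 37.6 CPM against 8.11, 6.46 and 9.87 CPM (log2 fold change 2.38, SE 0.21). Its copy lhx6.L differed by 2.81 (SE 0.38). The zinc finger gene sp8.L, active in the olfactory bulb lineage of mammals, differed by 2.85 (SE 0.26). RefSeq names LOC108705950 gsx2.S and LOC108719921 sp8.S, and these differed by 2.76 (SE 0.47) and 3.09 (SE 0.28). The copy called lower was LOC108708703, which RefSeq names gsx1.L, a progenitor factor related to gsx2, at 5.76, 3.40 and 4.25 CPM in forebrain and 27.9, 25.4 and 28.6 CPM in midbrain (log2 fold change -2.62, SE 0.25, adjusted p = 7.94e-06). Genes chosen after their values were seen, because they lie outside the lists, are zbtb18 and tshz1.L, which code for zinc finger factors, and mef2c, which codes for a MADS-box factor. The log2 fold change was 3.27 for zbtb18.L, 3.47 for zbtb18.S, 3.25 for tshz1.L, 2.57 for mef2c.L and 3.30 for mef2c.S.

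Other telencephalic factors differed by less than the fold threshold. Distal-less genes act in subpallial and also in prethalamic GABAergic neurons. Their log2 fold changes were 1.04 (dlx2.L), 1.42 (dlx2.S), 1.71 (dlx5.L), 1.37 (dlx5.S), 1.62 (dlx6.L) and 1.48 (dlx6.S), with edgeR adjusted p between 4.75e-05 and 0.00829. In dlx5.L, the forebrain libraries were at 48.2, 70.9 and 40.5 CPM and the midbrain libraries at 16.2, 14.998 and 17.9 CPM. Copies of bcl11b (Ctip2) were abundant in both regions, with forebrain means of 727 ± 151 CPM for bcl11b.L and 530.2 ± 149.8 CPM for bcl11b.S, and midbrain means of 270.5 ± 10.6 and 155 ± 12.7 CPM (SD, n = 3). The factor fezf2.L, which specifies subcerebral projection neurons in mammals, had a log2 fold change of 1.73 (SE 0.19). Of the listed factors, 26 were higher and 3 lower at an adjusted p below 0.05. Among the lower ones were nr2f2.L and nr2f2.S (COUP-TFII), at -1.41 (SE 0.25) and -1.35 (SE 0.25). A further entry, nr2f2 without a copy suffix, was not called. Its regions overlapped, at 10, 15.4 and 11.6 CPM in forebrain and 22.9, 15.8 and 14.1 CPM in midbrain.

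**Figure D2:**
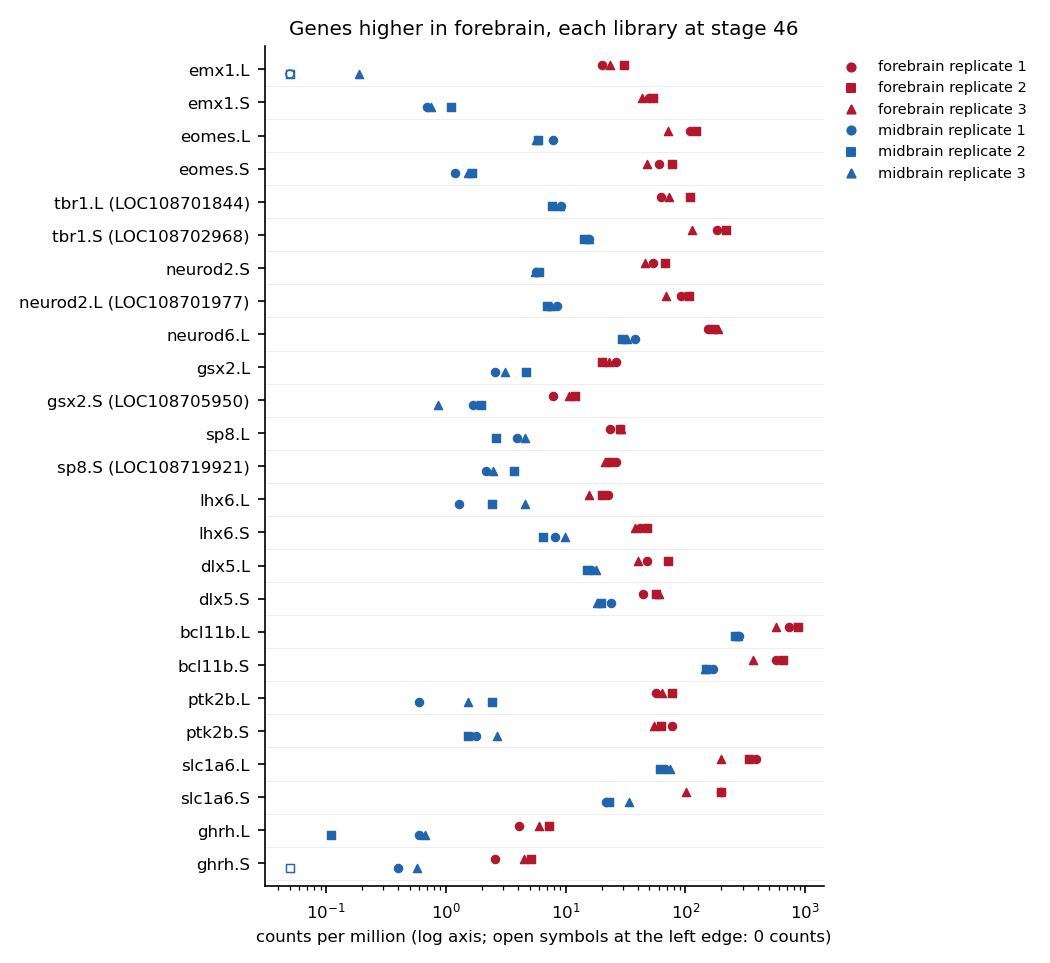
Level of 25 gene copies in CPM (log axis) in each stage 46 library, with forebrain in red, midbrain in blue and a symbol for each replicate. The forebrain libraries lie above the midbrain libraries in every gene shown, by far in emx1, eomes and ptk2b and by less in dlx5 and bcl11b.

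Some signalling and channel genes were called higher, where 1.43% of all genes tested were. Both copies of ptk2b, which codes for the calcium-regulated kinase Pyk2, were among the most different genes. The .L copy of ptk2b was at 57.0, 77.0 and 64.0 CPM in forebrain and 0.594, 2.41 and 1.52 CPM in midbrain (log2 fold change 5.46, SE 0.32, edgeR adjusted p = 6.19e-08), and ptk2b.S differed by 5.01 (SE 0.26). Of 38 tested copies of genes of glutamate neurons and receptors, 3 were called higher and none lower, and at any fold 8 were higher and 3 lower at an adjusted p below 0.05. Both copies of slc1a6, a glutamate transporter, were among them. The transporter slc1a6.L was at 385, 338 and 197 CPM in forebrain and 67.9, 61.5 and 73.9 CPM in midbrain (log2 fold change 2.18, SE 0.26), and its call ended without forebrain replicate 1. The copy slc1a6.S differed by 2.68 (SE 0.28). Of 66 potassium channel copies 3 were called higher and none lower (3 lower without forebrain replicate 3), namely kcnh3.L at 2.503 (SE 0.25), the inward rectifier kcnj2.L at 2.44 (SE 0.37) and kcnj13.L, another inward rectifier, at 2.12. RefSeq names LOC108714548 and LOC108715791 as copies of kcnj4, another inward rectifier, and they differed by 4.01 (SE 0.47) and 4.18 (SE 0.41).

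Among peptides and receptors, ghrh, which codes for growth hormone releasing hormone, was called higher in both copies. The levels of ghrh.L were 4.09, 7.25 and 5.94 CPM in forebrain and 0.594, 0.1095 and 0.665 CPM in midbrain (log2 fold change 3.60, SE 0.75, edgeR adjusted p = 0.00698). The copy ghrh.S differed by 3.58 (SE 0.93, adjusted p = 0.0278), and it lost its call without forebrain replicate 2 or without any 1 midbrain library, while ghrh.L lost its call without forebrain replicate 2 or midbrain replicate 1. The neuromedin B gene nmb.L was at 10.2, 4.61 and 8.21 CPM against 0.989, 1.09 and 0.475 CPM (log2 fold change 3.14, SE 0.60). The dopamine receptor gene drd4.L had a log2 fold change of 4.84 (SE 0.86). RefSeq names LOC108699533 brs3.L, a bombesin receptor, and it was at 57.0, 69.8 and 79.0 CPM against 3.56, 2.52 and 7.31 CPM (log2 fold change 3.92, SE 0.31).

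Further genes with large ratios on the forebrain side ranged from abundant to nearly absent. RefSeq names LOC108703385 cdhr1.S, a cadherin-related gene, and it was at 243, 242 and 168 CPM in forebrain and 1.98, 3.94 and 1.61 CPM in midbrain (log2 fold change 6.45, SE 0.33, edgeR adjusted p = 2.21e-08). The gene LOC108712476, named lman1l.S, was at 101, 84.3 and 94.0 CPM against 1.19, 3.72 and 2.37 CPM (log2 fold change 5.27). Others had few or no counts in midbrain. No midbrain library held a count of rbm47.L, which codes for an RNA-binding protein, or of umod.3.L, a uromodulin gene. Against a floor of 3 counts over the midbrain group, rbm47.L was at least 40.2-fold higher and umod.3.L at least 27.7-fold higher in forebrain. The nephrin gene nphs1.S, zan.L, the anion exchanger gene slc26a3.L, the odorant-binding protein gene obp.S and the homeobox gene nkx2-3.S had 1 or 2 midbrain counts each. Their ratios were 288 (95% counting interval 51.0 to 11430.1), 152 (41.4 to 1261), 118 (20.5 to 4706), 116 (20.2 to 4645) and 78.9 (13.5 to 3178). The levels of zan.L were 3.03, 4.06 and 39.3 CPM in forebrain and those of nphs1.S 4.55, 9.99 and 18.4 CPM. Forebrain replicate 3 was thus the highest library for both. It was also the highest for slc26a3.L (2.42, 2.53 and 10.5 CPM in forebrain), obp.S, nkx2-3.S, rbm47.L and umod.3.L. The folds and ratios of all these genes include replicate 3. Without it the log2 fold change moved from 7.51 to 5.47 for zan.L, from 6.67 to 5.71 for slc26a3.L and from 8.04 to 7.95 for rbm47.L. The counting intervals do not cover this spread between libraries. The calls of zan.L, umod.3.L and nkx2-3.S ended when midbrain replicate 1 was left out, those of zan.L and nkx2-3.S also without midbrain replicate 2, and that of zan.L also without midbrain replicate 3. In a fit of all 12 stage 46 libraries, the calls of nphs1.S, slc26a3.L, obp.S, umod.3.L, zan.L and nkx2-3.S ended.

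Lists of genes of non-neuronal tissue also held some higher calls. In a list of cartilage and connective tissue, 4 of 32 tested copies were called higher (matn2.S, dcn.L, dcn.S and ogn.L) and none lower (5 and 1 without forebrain replicate 3), and the summed level of the list was 961 to 1239 CPM in forebrain and 1043 to 1070 CPM in midbrain. The small proteoglycan genes dcn.L and ogn.L, expressed by fibroblasts, were at 7.73, 7.36 and 8.21 CPM and at 12.9, 13.9 and 20.7 CPM in forebrain, against 0.594, 0.328 and 2.37 CPM and 1.39, 2.96 and 2.28 CPM in midbrain. In a list of choroid plexus genes, 4 of 25 were called higher (tmem72.L, clic6.L, clic6.S and kcnj13.L) and none lower (3 and 2 without forebrain replicate 3), with sums of 420 to 441 CPM in forebrain and 463 to 483 CPM in midbrain. The chloride channel gene clic6.L lost its call without forebrain replicate 3 or any 1 midbrain library, kcnj13.L without forebrain replicate 1, and dcn.L and dcn.S without forebrain replicate 2, midbrain replicate 1 or midbrain replicate 2. In a list of 31 cilia and ependyma copies, with a median log2 fold change of 0.26, the only call was the alpha-tubulin gene tuba1a.S. It was at 36.1, 34.8 and 33.1 CPM against 5.05, 6.57 and 4.46 CPM (log2 fold change 2.70, SE 0.22). The part of these tissues in the result was not tested. In bulk samples, fewer cells of a type and less RNA per cell cannot be told apart.

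Myelin genes did not move as a group. Of 22 tested copies in the list of oligodendrocyte and myelin genes, 3 were called higher and 2 lower (3 and 4 without forebrain replicate 3). The lipid-binding protein gene of peripheral myelin, pmp2.S, was at 185, 132 and 149 CPM in forebrain and 7.32, 12.7 and 25.6 CPM in midbrain (log2 fold change 3.34, SE 0.39, edgeR adjusted p = 0.000337), and pmp2.L and egr2.L were also higher, at 4.24 (SE 0.58) and 3.52 (SE 0.93). The myelin basic protein copies mbp.L and mbp.S differed by 0.37 (SE 0.22) and 0.36 (SE 0.24) and were not called. RefSeq names LOC108696944 and LOC108697293 as mag.L and mag.S, a myelin-associated glycoprotein, and they differed by 5.11 (SE 0.51) and 4.69 (SE 0.64). The 2 lower calls were the copies of nkx2-2, a ventral patterning factor that is also on other lists. The call of pmp2.L ended without midbrain replicate 2, and that of egr2.L without forebrain replicate 2 or any 1 midbrain library.

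**Figure D3:**
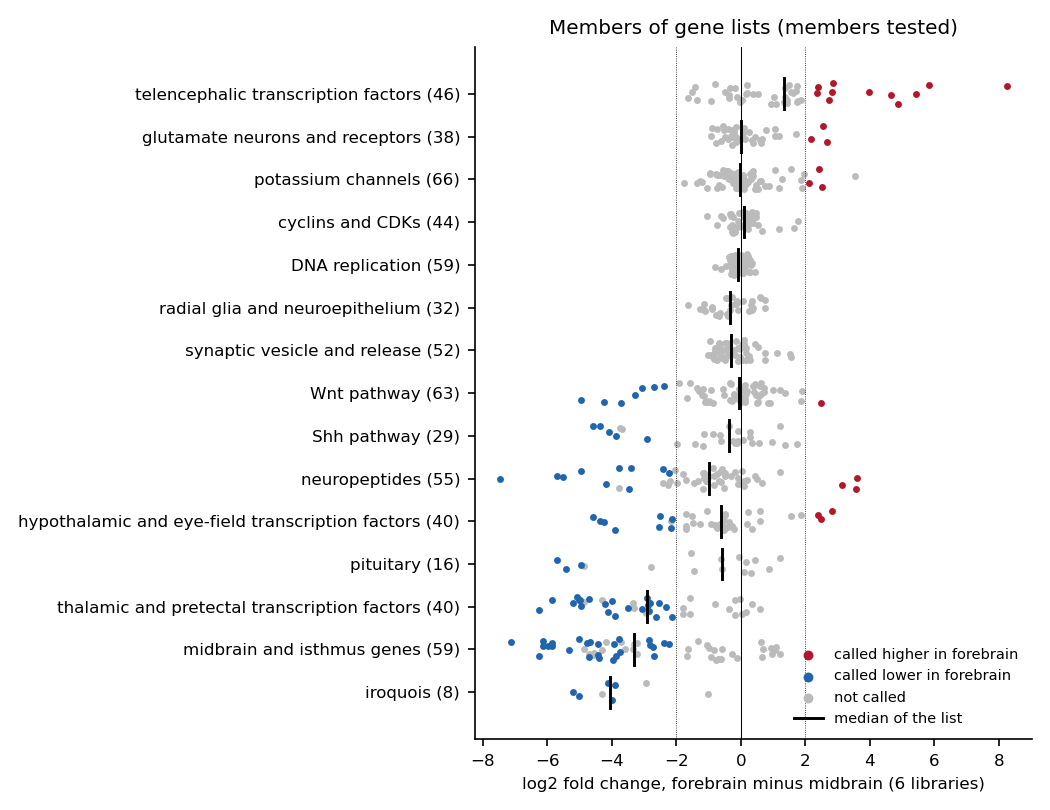
Log2 fold change (forebrain minus midbrain, all 6 libraries) of the tested members of 15 gene lists, with the number of members in brackets, called members in red (higher) or blue (lower), and a black bar at each median. The median was 1.35 for telencephalic transcription factors, -3.30 for midbrain and isthmus genes and -4.06 for iroquois genes, against 0.09 for cyclins and CDKs and -0.30 for synaptic genes.

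On the midbrain side, a list of midbrain and isthmus genes had 26 of 59 tested copies called lower in forebrain and none higher, with a median log2 fold change of -3.30. Without forebrain replicate 3, 41 of them were called lower and the median was -5.33. Summed over the list, the level was 325 and 291 CPM in forebrain replicates 1 and 2, 513 CPM in replicate 3 and 2001 to 2225 CPM in midbrain. Of the 59 copies 51 had a negative and 8 a positive log2 fold change, and at any fold 2 were higher at an adjusted p below 0.05.

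Among these were Tal1, Tal2, Gata2, Gata3, Helt and Sox14, factors known from GABAergic midbrain neurons and picked from the list after their values were seen. The level of tal2.L was 1.52, 0.1098 and 3.11 CPM in forebrain and 195, 188 and 131 CPM in midbrain (log2 fold change -7.11, SE 0.55, edgeR adjusted p = 2.14e-05). The level of sox14.L was 1.52, 0.329 and 2.55 CPM against 76.8, 65.7 and 65.5 CPM (log2 fold change -5.84, SE 0.37), and that of helt.L was 0.151, 1.87 and 2.55 CPM against 44.5, 45.8 and 46.8 CPM (log2 fold change -5.00, SE 0.40). The tested copies of tal1, gata2 and gata3 were all called lower except gata3.L, with log2 fold changes from -3.93 (gata2.S) to -5.32 (gata3.S), and sox14.S and tal2.S were at -6.27 and -6.14. The copy gata3.L had no counts in forebrain replicates 1 and 2, 3.68 CPM in replicate 3 and 21.0, 19.2 and 22.7 CPM in midbrain (log2 fold change -4.71, SE 1.18, adjusted p = 0.0896). Without replicate 3 it was at least 110-fold higher in midbrain. The calls of tal2.S, gata3.S, gata2.S and tal1.S ended when certain libraries were left out: tal2.S and tal1.S without forebrain replicate 1, tal2.S also without any 1 midbrain library, gata3.S without midbrain replicate 2 or 3, and gata2.S without midbrain replicate 3.

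Factors of the tectum and of its neurons followed. The POU gene pou4f2.S, a Brn3 factor, was at 0.151, 0.549 and 2.55 CPM in forebrain and 54.7, 50.5 and 51.9 CPM in midbrain (log2 fold change -5.99, SE 0.42, edgeR adjusted p = 6.87e-07), and pou4f2.L and pou4f1.L differed by -4.76 (SE 0.59) and -4.70 (SE 0.31). The AP-2 gene tfap2d.L was absent from the counts of forebrain replicates 1 and 2, at 5.095 CPM in replicate 3 and at 63.1, 76.0 and 80.8 CPM in midbrain (log2 fold change -6.13, SE 1.11, adjusted p = 0.045). Its call ended without forebrain replicate 1 or any 1 midbrain library. The most abundant of the list, tfap2b.S, was at 15.6, 5.82 and 22.1 CPM against 202, 239 and 207 CPM (log2 fold change -3.96, SE 0.38). The orthodenticle gene otx2.L, active in forebrain and midbrain, was at 25.6, 31.8 and 26.6 CPM against 91.1, 84.2 and 86.3 CPM, below the fold threshold at -1.63 (SE 0.18, adjusted p = 3.74e-05).

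Dorsal and isthmic factors showed how calls in the fit of all 6 libraries moved with forebrain replicate 3. Pax7, a marker of the tectum, was at 0.455, 0.769 and 9.62 CPM for pax7.L and 0.303, 0.549 and 9.34 CPM for pax7.S in forebrain, against 67.9, 65.5 and 55.2 CPM and 41.2, 55.5 and 37.2 CPM in midbrain. All forebrain libraries were below all midbrain libraries for both copies, but neither was called with all 6 (edgeR adjusted p = 0.0687 and 0.116), and both were without replicate 3 (adjusted p = 1.8e-13 and 4.17e-12). The same held for en2.S, an Engrailed gene, at 0.151, 0 and 4.81 CPM in forebrain and 23.8, 21.9 and 20.5 CPM in midbrain (adjusted p = 0.12 with all 6 and 1.53e-10 without replicate 3). The genes en1.L, en1.S and en2.L had no counts in forebrain replicates 1 and 2, and without replicate 3 they were at least 92.4-fold, 62.3-fold and 42.4-fold higher in midbrain. Pax3 and dmbx1 each had a copy called with all 6, pax3.L at -5.86 (SE 0.91, adjusted p = 0.017) and dmbx1.L at -4.42 (SE 0.83, adjusted p = 0.0345). Of the edgeR fits with and without replicate 3, pax3.S and dmbx1.S were called only in the fit without it, at -5.37 and -7.97. Of 16 alternative settings, pax7.L and pax3.S each gained a call in 8, pax7.S in 6, en2.S in 5 and dmbx1.S in 4. Not all of these settings left replicate 3 out. The calls of pax3.L and dmbx1.L ended without any 1 midbrain library and also without forebrain replicate 1 (pax3.L) or forebrain replicate 2 (dmbx1.L). The gene of SCO-spondin, secreted at the dorsal midline, sspo.L, was also called only without replicate 3. In sspo.L, forebrain replicate 3 was at 88.9 CPM, the other forebrain libraries at 0.455 and 0.549 CPM and the midbrain libraries at 77.3, 90.0 and 53.4 CPM.

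**Figure D4:**
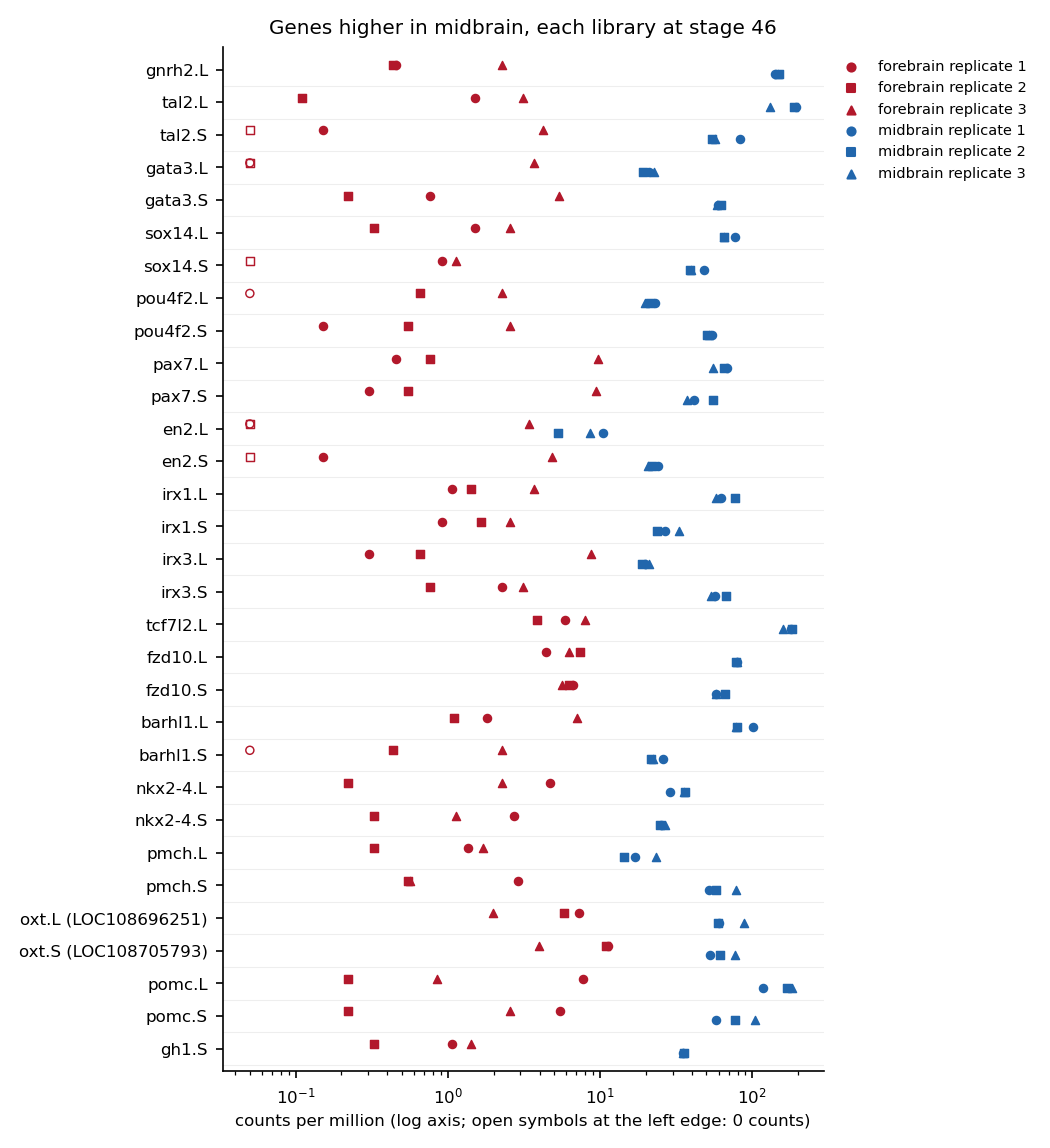
Level of 31 gene copies in CPM (log axis) in each stage 46 library, with forebrain in red, midbrain in blue, a symbol for each replicate and open symbols for 0 counts. In most genes the triangle of forebrain replicate 3 is the highest forebrain value, as in pax7 and en2, whereas in nkx2-4, pmch.S and pomc forebrain replicate 1 is the highest.

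Iroquois genes, which pattern territories from the thalamus to the hindbrain, were lower in forebrain in the copies called. Of 8 tested copies 5 were called lower with all 6 libraries and 8 without replicate 3. The weakly expressed copies irx4.S and irx6.S were not tested. The copy irx4.L was tested and was called lower only without replicate 3. In irx4.L forebrain replicate 3 was at 4.81 CPM, above the 2.56 to 2.97 CPM of the midbrain libraries. The summed level of the group was 10.9, 9.88 and 39.6 CPM in forebrain and 296, 319 and 284 CPM in midbrain. In irx1.L the levels were 1.06, 1.43 and 3.68 CPM against 62.1, 76.5 and 57.8 CPM (log2 fold change -5.19, SE 0.32, edgeR adjusted p = 8.56e-08). The other calls were irx1.S (-4.11), irx2.L (-4.003), irx3.S (-5.03) and irx5.L (-3.89).

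Thalamic and pretectal factors were lower in the tissue labelled forebrain, although these territories belong to the caudal forebrain. Of 40 tested copies 22 were called lower and none higher, with a median log2 fold change of -2.90. The list shares iroquois, sox14, ebf, lhx1 and pou4f1 copies with the lists above. Its Wnt effector tcf7l2.L, a marker of the thalamus and pretectum in vertebrates, was at 5.91, 3.84 and 7.93 CPM in forebrain and 180.0, 182 and 160.1 CPM in midbrain (log2 fold change -4.95, SE 0.27, edgeR adjusted p = 4.03e-08). The homeobox genes barhl1.L and shox2.S differed by -4.99 (SE 0.49) and -4.22 (SE 0.66), and barhl1.S by -5.09 (SE 0.60). The LIM homeobox gene lhx9.S differed by -2.12 (SE 0.22) and by -1.99 without forebrain replicate 3, which ended its call.

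Hypothalamic genes leaned to the midbrain side. Of 40 tested copies of hypothalamic and eye-field transcription factors, 30 had a negative and 10 a positive log2 fold change, with a median of -0.60. In this list 3 copies were called higher (lhx6.L, lhx6.S and vax2.S) and 8 lower (12 without forebrain replicate 3). The lhx6 copies are also on the telencephalic list, and vax2.L was not called (0.60, edgeR adjusted p = 0.182). The lower copies included nkx2-4.S, a factor of the ventral hypothalamus, at 2.73, 0.329 and 1.13 CPM in forebrain and 25.1, 24.7 and 26.6 CPM in midbrain (log2 fold change -4.23, SE 0.44, edgeR adjusted p = 2.63e-05). They also included nkx2-4.L (-3.89, SE 0.65), nkx2-2.L (-4.60, SE 0.59), nkx2-2.S (-4.36, SE 0.48), nr5a1.L (-2.54, SE 0.48), pou3f2.L (-2.49, SE 0.21) and six6.S (-2.17, SE 0.46), besides lhx9.S, which is on the thalamic list too. Outside the list, both copies of foxb1, a factor of the mammillary hypothalamus and dorsal midbrain, were lower, at -4.26 (SE 0.96) for foxb1.L and -5.36 (SE 0.72) for foxb1.S. Calls that ended with 1 library left out were those of vax2.S (without forebrain replicate 1 or 2 or midbrain replicate 1 or 2), six6.S (without forebrain replicate 2 or midbrain replicate 2), nkx2-4.L (without midbrain replicate 2 or 3) and foxb1.L (without forebrain replicate 1 or any 1 midbrain library).

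Neuropeptide genes leaned the same way. Of 55 tested copies 3 were called higher (ghrh.L, ghrh.S and nmb.L) and 10 lower (15 without forebrain replicate 3), with a median of -0.98. The most negative log2 fold change among called genes with a symbol was that of gnrh2.L, which codes for the gonadotropin releasing hormone of midbrain neurons. It was at 0.455, 0.439 and 2.26 CPM in forebrain and 140.1, 149 and 148 CPM in midbrain (log2 fold change -7.46, SE 0.38, edgeR adjusted p = 2.16e-08). The melanin-concentrating hormone gene pmch.S, expressed by hypothalamic neurons, was at 2.88, 0.549 and 0.566 CPM against 51.9, 57.9 and 78.4 CPM (log2 fold change -5.51, SE 0.42). Its copy pmch.L differed by -4.17 (SE 0.46). The oxytocin family gene that RefSeq names oxt.L (LOC108696251) was at 7.27, 5.82 and 1.98 CPM in forebrain and 60.3, 59.3 and 88.6 CPM in midbrain (log2 fold change -3.69, SE 0.31), and LOC108705793, named oxt.S, differed by -2.80 (SE 0.28).

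The remaining peptide calls were pomc.L, pomc.S, npb.L, npvf.S, grp.L, cartpt.S and trh.S. The thyrotropin releasing hormone gene trh.S was at 34.4, 33.7 and 12.46 CPM in forebrain and 96.4, 119.7 and 169.7 CPM in midbrain (log2 fold change -2.23, SE 0.34, edgeR adjusted p = 0.00125), and its call ended without forebrain replicate 3 or midbrain replicate 3. The other log2 fold changes were -3.47 (SE 0.64) for npb.L, -3.39 (SE 0.84) for npvf.S, -3.77 (SE 1.00) for grp.L and -2.42 (SE 0.55) for cartpt.S. The calls of npvf.S and grp.L ended without any 1 midbrain library, and that of grp.L also without forebrain replicate 1 or 2. The call of npb.L ended without midbrain replicate 1, and that of cartpt.S without forebrain replicate 2 or midbrain replicate 1 or 2. Outside the list, pth2.L, which codes for a parathyroid hormone family peptide, had 1 count in forebrain and 180 in midbrain, a ratio of 116 with a 95% counting interval from 20.6 to 4619.

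Pituitary genes were found in the midbrain libraries. The level of pomc.L, the precursor of adrenocorticotropin and melanocyte stimulating hormone, was 7.73, 0.220 and 0.849 CPM in forebrain and 118, 168 and 183 CPM in midbrain (log2 fold change -5.70, SE 0.98, edgeR adjusted p = 0.0361). The level of pomc.S was 5.45, 0.220 and 2.55 CPM against 57.4, 77.3 and 103 CPM (log2 fold change -4.94, SE 0.77, adjusted p = 0.018). Without forebrain replicate 3 the adjusted p was 0.0555 for pomc.L and 0.0519 for pomc.S, and both calls also ended without midbrain replicate 2 or 3, and that of pomc.L without midbrain replicate 1. The growth hormone gene gh1.S was at 1.06, 0.329 and 1.42 CPM against 35.0, 35.5 and 35.1 CPM (log2 fold change -5.43, SE 0.34, adjusted p = 9.91e-08). RefSeq names LOC108697263 as prl.2.S, a prolactin gene, and it was at 0.151, 0.220 and 2.83 CPM against 92.3, 127 and 150.2 CPM. Of 16 tested copies in the pituitary list 3 were called lower and none higher (5 lower without forebrain replicate 3), and the list summed to 125 to 137 CPM in forebrain and 422 to 543 CPM in midbrain. Genes of the pineal, which sits on the diencephalic roof, had 3 of 11 tested copies called lower (aanat.S, asmt.S and tph1.S; 6 lower without forebrain replicate 3), with sums of 48.9 to 113 CPM in forebrain and 180 to 206 CPM in midbrain. The call of tph1.S ended without forebrain replicate 1 or midbrain replicate 2 or 3, and that of asmt.S without forebrain replicate 1 or midbrain replicate 2. The midbrain libraries thus held more transcripts of genes known from the hypothalamus, the pituitary and the pineal than the forebrain libraries did, and the part of these tissues in the region difference was not tested.

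Lists of transmitter systems other than glutamate held few higher calls, where 1.43% of all genes tested were called higher. Their counts of lower calls rested on forebrain replicate 3. Of all genes tested, 0.654% were called lower with it and 1.68% without it. Of 22 dopaminergic copies 1 was called higher (drd4.L) and 4 lower (the transcription factors foxa1.L, foxa2.L, nr4a2.L and nr4a2.S), and without forebrain replicate 3 there were 10 lower. The nuclear receptor gene nr4a2.S (Nurr1), needed for midbrain dopamine neurons in mammals, was at 3.64, 2.86 and 6.79 CPM in forebrain and 27.6, 29.8 and 24.6 CPM in midbrain (log2 fold change -2.72, SE 0.29, edgeR adjusted p = 2.19e-05). RefSeq names LOC108713461 th.L, a copy of tyrosine hydroxylase, and it differed by -2.38 (SE 0.27). The listed copy th.S was not called with all 6 libraries, at 15.2, 9.44 and 13.9 CPM in forebrain and 34.5, 33.7 and 31.9 CPM in midbrain. Nor was the dopamine transporter gene slc6a3.S, at 6.36, 9.77 and 10.8 CPM against 26.2, 16.7 and 20.1 CPM. The genes of acetylcholine synthesis and choline uptake that RefSeq names chat.L (LOC108696296) and slc5a7.L (LOC108708392) differed by -3.17 (SE 0.47) and -2.57 (SE 0.44). Of 20 cholinergic copies with symbols, 1 was called lower, the receptor gene chrna4.L (-2.05, SE 0.19), and 4 were without forebrain replicate 3. Of 22 copies of GABA and glycine neuron genes none was called in the edgeR fit, and 4 were called lower without forebrain replicate 3. In lists of this size, 0 or 1 call cannot be set apart from the shares over all genes. The calls of foxa1.L and foxa2.L ended without any 1 midbrain library, that of foxa2.L also without forebrain replicate 1, and that of chrna4.L without midbrain replicate 1.

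Among signalling pathways, the Wnt and Sonic hedgehog lists held several lower calls. Of 63 Wnt pathway copies 1 was called higher, sfrp5.S at 2.4999 (SE 0.48), and 7 lower, while the median of the list was -0.07, and without forebrain replicate 3 there were 13 lower. The lower copies were the receptor gene fzd10 in both copies, the effectors tcf7l2.L and lef1.L, the Wnt target sp5 in both copies and the ligand wnt3.L. The receptor fzd10.L was at 4.39, 7.36 and 6.23 CPM in forebrain and 79.8, 78.1 and 78.8 CPM in midbrain (log2 fold change -3.70, SE 0.22, edgeR adjusted p = 7.6e-08), and forebrain replicate 3 lay between the other forebrain libraries. Log2 fold changes were -3.27 (SE 0.20) for fzd10.S, -2.39 (SE 0.23) for sp5.L, -2.68 (SE 0.25) for sp5.S, -3.06 (SE 0.31) for lef1.L and -4.23 (SE 0.87) for wnt3.L. The call of wnt3.L ended without any 1 midbrain library.

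Of 29 Sonic hedgehog pathway copies 5 were called lower and none higher. Without forebrain replicate 3 there were 9 lower, and the median moved from -0.37 to -0.88. The 5 were the ligand shh.L, at 2.27, 1.54 and 5.66 CPM in forebrain and 25.3, 19.0 and 19.8 CPM in midbrain (log2 fold change -2.92, SE 0.38, edgeR adjusted p = 0.000154), and the ventral factors foxa2.L (-3.86, SE 0.86), nkx6-2.L (-4.07, SE 0.36) and both copies of nkx2-2. The copy shh.S was not called (-1.97, edgeR adjusted p = 0.151). Among ephrins and Eph receptors, which guide retinal axons in the tectum, 2 of 21 copies were called lower. The ligand efna2.L was at 12.9, 7.58 and 15.6 CPM in forebrain and 82.3, 85.2 and 75.9 CPM in midbrain (log2 fold change -2.80, SE 0.24), and the receptor ephb3.S differed by -2.10 (SE 0.22), with its call ended without midbrain replicate 1. RefSeq names LOC108706841 efna2.S, and it differed by -2.98 (SE 0.42). In the retinoic acid list 1 of 34 copies was called higher, the binding protein gene crabp1.S (2.73, SE 0.25), and 1 lower (2 and 3 without forebrain replicate 3). In the FGF list 1 of 42 copies was called higher (2 without forebrain replicate 3), fgf3.S at 2.30 (SE 0.41), and in the BMP list 1 of 31, bmp6.L at 4.35 (SE 1.09), whose call ended without any 1 midbrain library. No copy of the Notch list was called among 27 tested. These counts stand beside the 2.09% of all genes tested that were called in either direction, and the FGF, BMP and Notch counts are near it.

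Lists of proliferation genes held no call, where 2.09% of all genes tested were called in either direction. None of 44 copies of cyclins and CDKs and none of 59 DNA replication copies was called in the edgeR fit, with medians of 0.09 and -0.07 on the log2 scale. At any fold, the only copy of the 2 lists with an adjusted p below 0.05 was pold2.L, a DNA polymerase subunit gene, at -0.79. None of 32 copies of radial glia and neuroepithelium genes was called (median -0.32), of which 2 were higher and 9 lower at an adjusted p below 0.05. The list of intermediate progenitors and immature neurons held 40 tested copies, of which 4 were called higher (eomes.L, eomes.S, neurod2.S and neurod6.L) and 4 lower, the copies of ebf2 and ebf3, helix-loop-helix factors of differentiating neurons. In ebf2.L the levels were 11.7, 16.7 and 14.7 CPM in forebrain and 116, 106 and 96.7 CPM in midbrain (log2 fold change -2.88, SE 0.21, edgeR adjusted p = 4.07e-07), and ebf3.L differed by -2.54 (SE 0.21). None of 52 synaptic vesicle and release copies was called (median -0.30). Lists of blood vessels, red blood cells and olfactory epithelium also held no call among 35, 14 and 12 tested copies. Each list without a call, those of proliferation, radial glia and synaptic genes included, holds too few copies to be set apart from the 2.09%.

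Single genes show how calls ended or began without forebrain replicate 3. Of the 45 higher calls that ended, the 5 with the smallest p were those of atp2a3.S, rnf213.L, ddx58.L, hkdc1.L and pck1.L. In ddx58.L, a sensor of viral RNA, the levels were 5.91, 6.15 and 22.1 CPM in forebrain and 1.88, 2.41 and 0.760 CPM in midbrain, and its log2 fold change was 2.72 with all 6 libraries and 1.85 without replicate 3. The 6 lower calls that ended were those of sema3f.L, lhx9.S, pou3f4.L, trh.S, pomc.S and pomc.L, with log2 fold changes between -1.88 and -5.46 without replicate 3. Of the 57 higher calls gained, the 5 with the smallest p were those of r3hdm1.S, nfia.S, p2ry1.L, fam163b.L and gprin1.S, all with log2 fold changes from 1.81 to 1.99 before and 2.01 to 2.18 after. The 5 gained genes thus crossed the threshold with a small change in fold, whereas sspo.L went from -1.43 to -7.13.

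Where a copy was called, copies on the long and short chromosome mostly shared their direction. Both copies were tested for 4844 genes. At least 1 copy was called higher in 77 of these and both in 27. Among the 50 with a single copy called, the other copy had the same sign in 48 and a log2 fold change above 1 in 36. For genes called lower, at least 1 copy was called in 46 genes and both in 22, and among the 24 with a single copy called the other copy had the same sign in 23 and a log2 fold change below -1 in 19. The share of all 4844 pairs with the same sign is not given here, so these counts cannot be set against it. The authors' handling of reads that map to both copies is not stated, so the copies may share reads.

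The same contrast at NF stage 49 shares no library with stage 46. It had 2 forebrain libraries with 2398636 and 3065594 counts and 2 midbrain libraries with 7428758 and 4937973 counts. Both forebrain libraries and midbrain replicate 2 had between 46403 and 47374 genes with counts, close to the 45979 of stage 46 forebrain replicate 3, and midbrain replicate 1 had 38815. Of 35528 genes tested, 10 were called higher (0.0281%) and 20 lower (0.0563%), and 2011 had an unadjusted p below 0.05. If no gene differed, a share of about 0.05 would pass the unadjusted threshold, and 2011 of 35528 is near that share. Without midbrain replicate 2 the numbers called were 10741 higher and 200 lower, without midbrain replicate 1 they were 48 and 77, and without either forebrain library 13 were lower.

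Genes called at stage 46, with and without forebrain replicate 3, kept their sign at stage 49 in 302 of 313 higher genes tested there (96.5%) and in 150 of 155 lower genes (96.8%). Among genes not called at stage 46 the sign was shared in 69.0%, both directions pooled. Both stage 49 forebrain libraries detected many genes (46403 and 46840), as did midbrain replicate 2 (47374) but not midbrain replicate 1 (38815). How far this imbalance shaped the signs and the separation at stage 49 was not tested. The median log2 fold change of the higher genes was 3.24 at stage 46 and 1.204 at stage 49, and that of the lower genes -3.33 and -1.96. The stage 49 forebrain libraries lay wholly above the midbrain libraries in 223 of the 313 and wholly below in 132 of the 155, where 16.6% and 33.7% of all genes tested at both stages were separated in these directions. Of the genes called at stage 46, 9 were also called higher and 16 called lower at stage 49.

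A named example at stage 49 was sox14.L, at 1.90 and 1.49 CPM against 66.6 and 44.7 CPM (log2 fold change -5.03, edgeR adjusted p = 0.0129). The peptide gene pmch.S was at 2.66 and 2.08 CPM against 55.5 and 46.8 CPM (adjusted p = 0.0129). The pituitary gene pomc.L was at 3.04 and 0.595 CPM against 717 and 459 CPM (log2 fold change -8.40, adjusted p = 0.0157). Others were not called there, among them emx1.L, at 11.04 and 14.9 CPM against 0.528 and 4.29 CPM (log2 fold change 2.42, edgeR adjusted p = 0.811). It passed the fold threshold but not that on the adjusted p. A test of the difference in region effect between the stages gave 1 gene of 40777 at an adjusted p below 0.05 by edgeR and 987 at an unadjusted p below 0.05. If no gene differed, a share of about 0.05 would pass the unadjusted threshold, and 987 of 40777 is below that share.

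**Figure D5:**
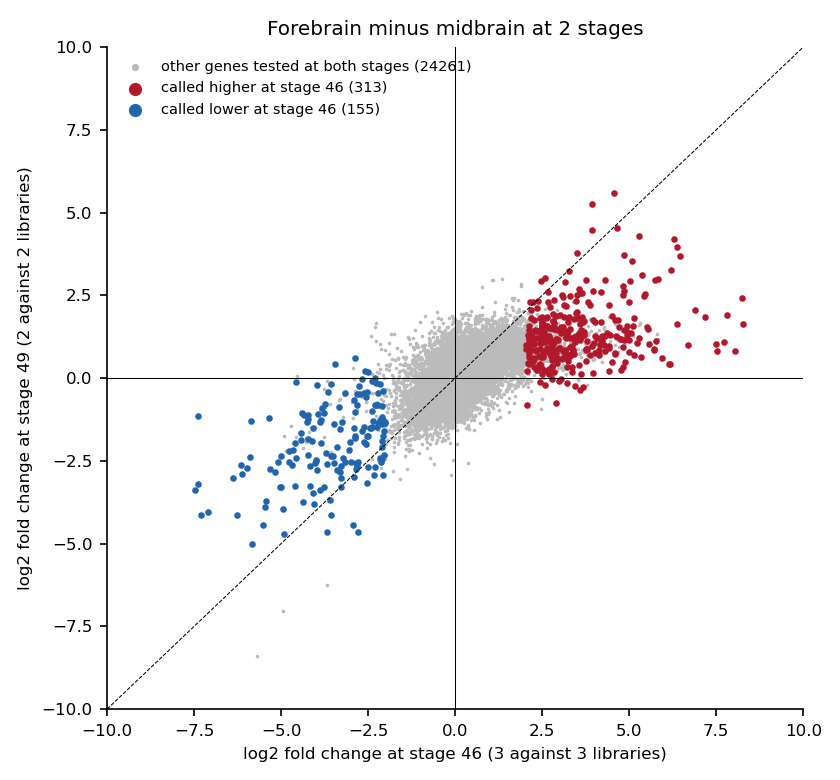
Log2 fold change (forebrain minus midbrain) at stage 46 on the x axis and at stage 49 on the y axis for genes tested at both stages, with genes called at stage 46 in both fits in red (313 higher) and blue (155 lower) and equal values on the dashed line. Most coloured points share the sign of stage 46 but lie nearer to 0 at stage 49.

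The other regions sampled at stage 46 place some of these genes along the neural axis. Over the 12 stage 46 libraries scaled together, the peptide gene gnrh2.L was at 4.18 to 6.39 CPM in hindbrain and 0 to 1.84 CPM in spinal cord, against 144 to 154 CPM in midbrain. The levels of irx1.L did not set the midbrain apart from the regions behind it, with 59.8 to 78.9 CPM in midbrain, 41.0 to 78.3 CPM in hindbrain and 37.1 to 48.9 CPM in spinal cord. Likewise en2.S was at 21.2 to 24.6 CPM in midbrain and 22.6 to 27.8 CPM in hindbrain. The level of tal2.L was 33.2 to 79.3 CPM in spinal cord, and that of tcf7l2.L was at most 11.2 CPM in hindbrain and 3.60 CPM in spinal cord. These levels were not tested.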

How the data were processed

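The authors amplified RNA into cDNA, sequenced the libraries, aligned the reads with STAR 2.5.2a to X. laevis v9.2, counted them per gene with HTSeq 0.11.1 and deposited raw counts per gene and sample. Handling of reads that map to several places and of strand is not given in the sources used here. The deposited normalized tables were not used, and 1 count column, of a stage 44 midbrain library, was not used.

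Only the 6 stage 46 forebrain and midbrain libraries entered the main fit. Genes were filtered by filterByExpr (minimum count 10, minimum total 15), scaled by TMM and tested with the quasi-likelihood F test of edgeR 4.0.16 in R 4.3.3, with robust dispersions; p-values were adjusted by Benjamini-Hochberg across the tested genes. Calls needed a fold change beyond 2 on the log2 scale and an adjusted p under 0.05, the thresholds of the study. The standard error (SE) is the size of the log2 fold change over the square root of F. CPM are counts divided by the TMM-scaled library size and multiplied by 1e6. Folds against a group without counts use a floor of 3 counts over the group, and for a group with 1 to 3 counts the ratio of summed counts has an exact 95% interval, which covers counting error only. With 3 against 3 libraries an exact permutation test of 1 gene cannot go below 0.1. Depth was 3277179 to 10884064 counts per library.

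Genes and lists were chosen with earlier results of these data known. Named genes were, per direction, the 15 with a gene symbol and the largest fold called with and without forebrain replicate 3 with groups that do not overlap, listed genes that were called (up to 6 per list) or abundant, their other copies, and 5 of each class of call lost or gained without forebrain replicate 3. Further list members, and genes outside the lists, were named after their values were seen. Lists overlap and were described by counts and medians. Of 6843 tested LOC genes, 2363 were named by their RefSeq gene ID (assembly v10.1) after the data were seen, and no coordinates were used. Alternatives were no filter, RLE scaling, DESeq2 1.42.0, all 12 stage 46 libraries, a replicate block, a threshold of 1, thinned counts and each library left out. The steps were tested on simulated data. Some genes that met the rule are not reported here.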

Additional observations from a re-analysis of the deposited data

How the results depend on the processing

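The number of genes called higher depended on the filter and on single midbrain libraries. It was 1187 without the filter on low counts, 598 with DESeq2 and the filter, 974 with DESeq2 and no filter, 162 with all 12 stage 46 libraries in one fit and 738 at a threshold of 1, against 362. With each library left out in turn it ranged from 204 to 489. The number called lower was 518 at a threshold of 1, against 165, and ranged from 117 to 428 with each library left out. With forebrain replicate 3 left out it was 421 by DESeq2, and at a threshold of 1 the numbers were 840 higher and 974 lower. At stage 49 the numbers called higher and lower were 31 and 83 without the filter, 18 and 39 with RLE scaling, and 32 and 80 with DESeq2, and ranged from 11 to 10741 and from 13 to 200 with each library left out. Leaving 1 of 2 libraries in a group assumes that the lone library varies like the other group.

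The replicate numbers are shared by the regions, and whether they pair the libraries could not be settled. At stage 46, deviations of same-numbered libraries from their group means correlated at 0.0313, -0.00302 and 0.0191 across genes. Not every library correlated best with its own number. Such small correlations from few libraries cannot exclude a pairing, and stage 49 was not examined in this way. With a replicate block, stage 46 had 396 higher and 156 lower calls and stage 49 had 107 and 81.

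Of 141 called genes named in the report, 46 lost their call with some 1 library left out and 61 under some alternative. The replicate block ended 12 of these calls, and the fit of all 12 stage 46 libraries ended 33. Among the 33 were gh1.S, drd4.L, nmb.L, nr5a1.L, kcnh3.L, sfrp5.S, aanat.S, tmem72.L, LOC108701844 (tbr1.L), LOC108705950 (gsx2.S) and LOC108714548 (a kcnj4 copy). The 33 also held nphs1.S, slc26a3.L, obp.S, ghrh.L and ghrh.S. Of the 175 named genes checked under the alternatives, only neurog2.L, which was not called, changed sign: its log2 fold change ranged from -0.11 to 0.43 with each library left out. Some copies and entries named as not called were not checked in this way. With forebrain replicate 3 at 3277179 counts, its low-level genes carried the largest counting error.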
